A study of Mus musculus with 8 samples.

Results

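RNA immunoprecipitation (RIP) recovers an RNA-binding protein from a tissue lysate with an antibody and measures the RNA that comes down with it. The comparison described here sets RNA precipitated with antibody against CPEB1 beside the input lysate of the same mouse striatum. It was defined by the array titles and comprised 4 of the 8 arrays of the series: CPEB1 RIP and INPUT, each from a WT and an HD pool of mice. The genes were the 11345 of 17097 with a single-symbol probe set whose mean over the 8 arrays exceeded 4.23 (log2), the middle value among the means of all probe sets. They were taken in both directions, above and below input.

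CPEB1, cytoplasmic polyadenylation element binding protein 1, binds U-rich elements in the 3′ untranslated regions of messenger RNAs. Depending on its partners and its phosphorylation, it keeps poly(A) tails short and the message silent, or lets the tail grow and translation start. It was first studied in oocytes, and in neurons it is known at dendrites and synapses, where it takes part in local translation. The striatum, the main input nucleus of the basal ganglia, consists mostly of medium spiny neurons, which are GABAergic projection neurons.

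All mice were male and 7 to 8 months old, and the design text names 4 mice. Striata were pooled by genotype, WT or HD, and crosslinked with formaldehyde, and the lysate was precleared on unconjugated beads. An aliquot was kept as INPUT, and the remainder was precipitated with anti-CPEB1, with anti-CPEB4 or with rabbit IgG, the control for RNA that sticks to antibody and beads. RNA of every fraction was amplified over 27 cycles, with 8 µg of cDNA per array. HD is an abbreviation that the labels leave unexplained, and for strain and allele of these mice nothing is stated in the sources used here. Each fraction has 1 array per pool, so the WT and HD pools stand in for replicates, and any difference between genotypes that varies by fraction counts as error in the tests. The p-values measure the spread between these pools and not between mice. Below, a pair of values gives the WT pool first and the HD pool second, and levels are log2 probe set values as deposited.

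The tissue label was checked against medium spiny neuron markers. In input, Ppp1r1b (DARPP-32) was at 11.07 and 10.30 and Penk (proenkephalin) at 9.64 and 8.30. Drd1, the D1 dopamine receptor, was near the limit for testing at 4.53 and 4.47, and Tac1 (substance P) fell short of it, with 3.22 and 3.92 in input. Of the 33 markers on the array 30 passed that limit, which uses the same arrays and so is no test of the tissue. The cortical marker Slc17a7 (VGLUT1) had 6.50 and 5.37 in input, and Nrgn, from the same cortical list, 10.91 and 10.80. Over the 7 tested cortical excitatory neuron markers the mean input level was 7.54 and 7.89. Over the 30 medium spiny neuron markers it was 7.73 and 7.22. The 2 pools were not alike in array spread: 2777 and 1428 probe sets lay above 8 with CPEB1, 1387 and 2072 in input, and 1606 and 1143 with IgG. The actin control had a 3′ minus 5′ signal of -1.41 and -2.45 on the CPEB1 arrays, -0.12 and -0.78 in input, and -1.66 and -2.20 with IgG. The part of these differences in the results was not tested.

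With anti-CPEB1, 2 genes rose over input past the threshold, Cenpb and Mrps33, and none fell. Cenpb (Entrez gene 12616) encodes a centromere protein that binds satellite DNA, and Mrps33 (Entrez gene 14548) a protein of the small subunit of the mitochondrial ribosome. Including these, 396 genes were at least 2-fold above input in both pools, and 134 were at least 2-fold below. After the called genes the list was led by Trim44, Pdzd4 and Speg above and by Fam107a, Sumo2 and Nkain1 below. A further 445 genes were above input in the WT pool and below it in the HD pool by the same margin.

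Cenpb measured 10.54 and 10.87 with CPEB1 and 4.09 and 5.23 in input. The difference was 6.04 ± 0.33 on the log2 scale (SE, 2 arrays per fraction), a 66.0-fold excess with an adjusted p of 0.0287 by limma. With IgG the same probe set read 8.60 and 9.42, and with CPEB4 10.38 and 10.63. All 3 precipitates were therefore above both input arrays, and CPEB1 exceeded IgG by 1.69, a difference that did not pass (adjusted p = 0.247 by limma). Mrps33 measured 8.79 and 8.14 with CPEB1 against 3.92 and 3.47 in input, a difference of 4.78 ± 0.25 and a 27.4-fold excess (adjusted p = 0.0287 by limma). Its IgG values, 8.98 and 8.49, were higher than its CPEB1 values in both pools. The 2 genes are 0.0176% of those tested higher, and the 0 lower are 0.0%. At an unadjusted p under 0.05 by limma there were 615 genes higher (5.42%) and 301 lower (2.65%). Both calls were lost with median centring (adjusted p = 0.0523), with a trended robust variance (0.14), and on leaving out any of the 8 arrays (0.0787 to 0.28), all by limma.

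Fold differences within each pool describe more genes than the test could call. The 396 genes at 2-fold or more above input in both pools are 3.49% of those tested, and the 134 below are 1.18%. Under cyclic loess scaling the same counts were 372 and 210. The median level of the 396 genes was 8.60 and 8.16 with CPEB1, 5.98 and 6.05 in input, 6.96 and 6.46 with IgG, and 8.31 and 8.14 with CPEB4. For the 134 genes it was 6.66 and 5.86 with CPEB1, 8.38 and 8.44 in input, 6.72 and 6.10 with IgG, and 8.20 and 8.02 with CPEB4. The level with IgG thus lay nearer to input than to CPEB1 for the genes above input, and nearer to CPEB1 than to input for the genes below it. Both sets were chosen for their CPEB1 difference on these same CPEB1 and input arrays, and IgG had no part in the choice. A distance of CPEB1 from input is built into them, so these positions are no test of CPEB1 against IgG. The median excess over input of the 396 genes was 2.19 with CPEB1 and 0.68 with IgG, and the median deficit of the 134 was -1.89 and -1.86; the 2 comparisons share the input arrays. Over all genes tested, IgG was 2-fold above input in both pools for 189 (1.67%) and below for 379 (3.34%). By the same rule CPEB4 was above input for 1350 genes and below for 203. Of the 396 genes, 384 are annotated as protein coding, as are 10693 of the 11345 genes tested. The median gene length was 26817 bp for the 396, 18554 bp for the 134 and 19656 bp over all genes tested. At the edge of the rule, Pard6a was inside with differences of 1.34 and 1.0, and Kif21a just outside with 0.99 in both pools.

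**Figure D1:**
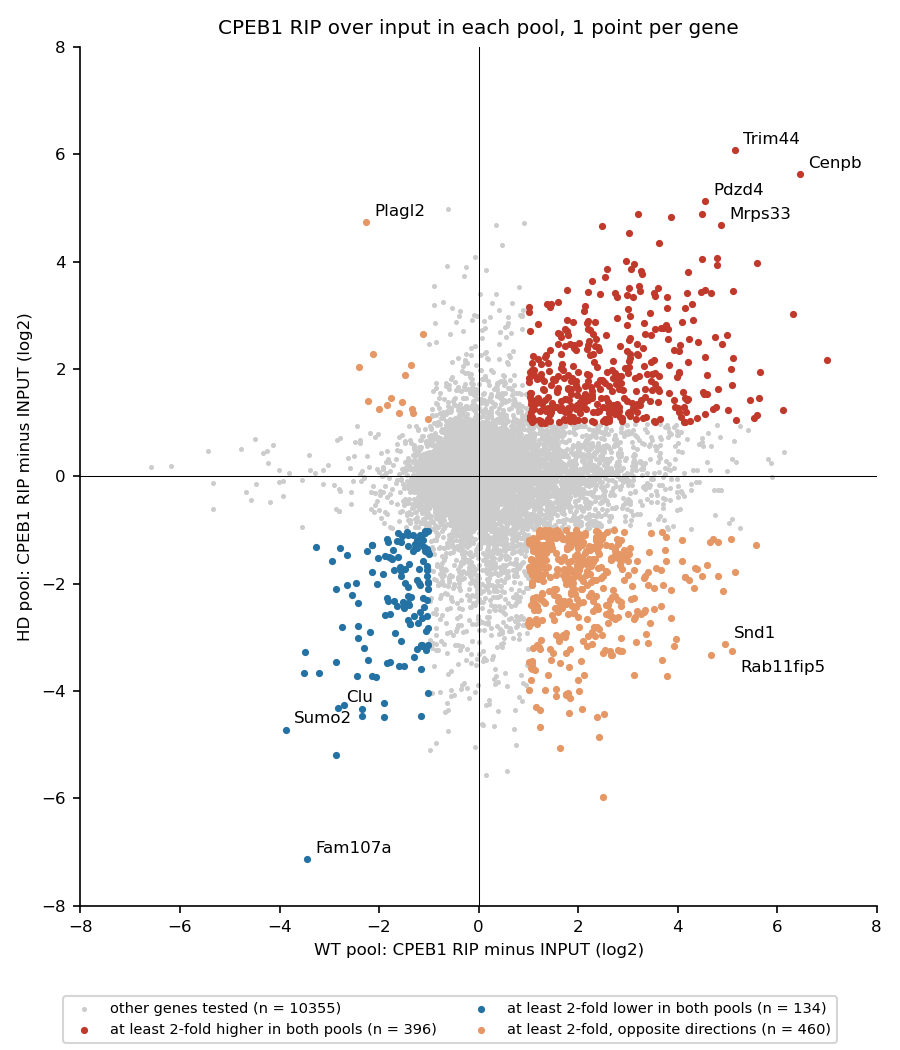
CPEB1 RIP minus INPUT on the log2 scale, 1 point per gene tested (11345 genes), with the WT pool on the x axis and the HD pool on the y axis. Coloured points are the 396 genes at 2-fold or more above input in both pools, the 134 below in both, and those with opposite directions, 445 at the lower right and 15 at the upper left.

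Trim44, Pdzd4 and Speg followed Cenpb among the genes furthest above input. Trim44, a tripartite motif protein with a ubiquitin protease-type zinc finger, had 9.70 and 9.40 with CPEB1, 4.55 and 3.33 in input and 6.20 and 6.35 with IgG. Its difference of 5.61 ± 0.40 did not pass by limma (adjusted p = 0.0653), and it did pass without the pool block (adjusted p = 0.0366). Pdzd4, a PDZ domain protein, had 10.46 and 10.51 with CPEB1 against 5.91 and 5.39 in input and 6.36 and 5.21 with IgG. Both CPEB1 arrays were thus the highest of the 8 for Pdzd4, with IgG close to input. Speg, a kinase best known from striated muscle, had 10.69 and 11.18 with CPEB1, 5.09 and 7.21 in input and 8.41 and 7.01 with IgG. Rdh11, a retinol dehydrogenase, had 7.28 and 8.54 with CPEB1, 3.42 and 3.72 in input and 3.35 and 3.46 with IgG. Its input and IgG values were all lower than the limit for testing, so their closeness does not place IgG recovery at input level. Another Rdh11 probe set had differences from input of -0.655 and -0.086 with CPEB1. Averaged over the probe sets of the gene, the Rdh11 difference fell from 4.34 to 1.99. CPEB4 values for Rdh11 were 7.42 and 6.49, within reach of CPEB1.

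Adcy1, Atp2b1, Pitpnm2, Ttll11, Ramp2 and Snurf were also among the 12. Adcy1, the calcium- and calmodulin-stimulated adenylyl cyclase, had 10.28 and 8.76 with CPEB1 and 5.48 and 4.69 in input, with 7.70 and 4.53 for IgG. Atp2b1, a calcium pump of the plasma membrane, had 9.30 and 8.91 with CPEB1, 4.51 and 4.97 in input, and 8.26 and 8.84 with IgG. Another Atp2b1 probe set was 2-fold below input in both pools, at -2.78 and -1.96. With IgG, the Atp2b1 probe set used was above both input arrays, and Adcy1 in the WT pool alone. Pitpnm2, a phosphatidylinositol transfer protein, had 11.04 and 8.74 against 5.93 and 5.28 in input, and Ttll11, a tubulin polyglutamylase, 9.49 and 8.81 against 5.0 and 4.76. Their IgG values were 9.26 and 7.63 for Pitpnm2 and 6.94 and 5.11 for Ttll11. Ramp2, a partner of the calcitonin receptor-like receptor, had 10.58 and 10.65 with CPEB1 and 11.83 and 12.24 with IgG. Snurf, which shares a transcript with Snrpn so that the probe set may not tell them apart, had 11.83 and 11.64 with CPEB1 and 11.73 and 12.02 with IgG. In input these 2 genes differed between pools, at 4.27 and 7.63 for Ramp2 and 4.82 and 9.47 for Snurf.

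**Figure D2:**
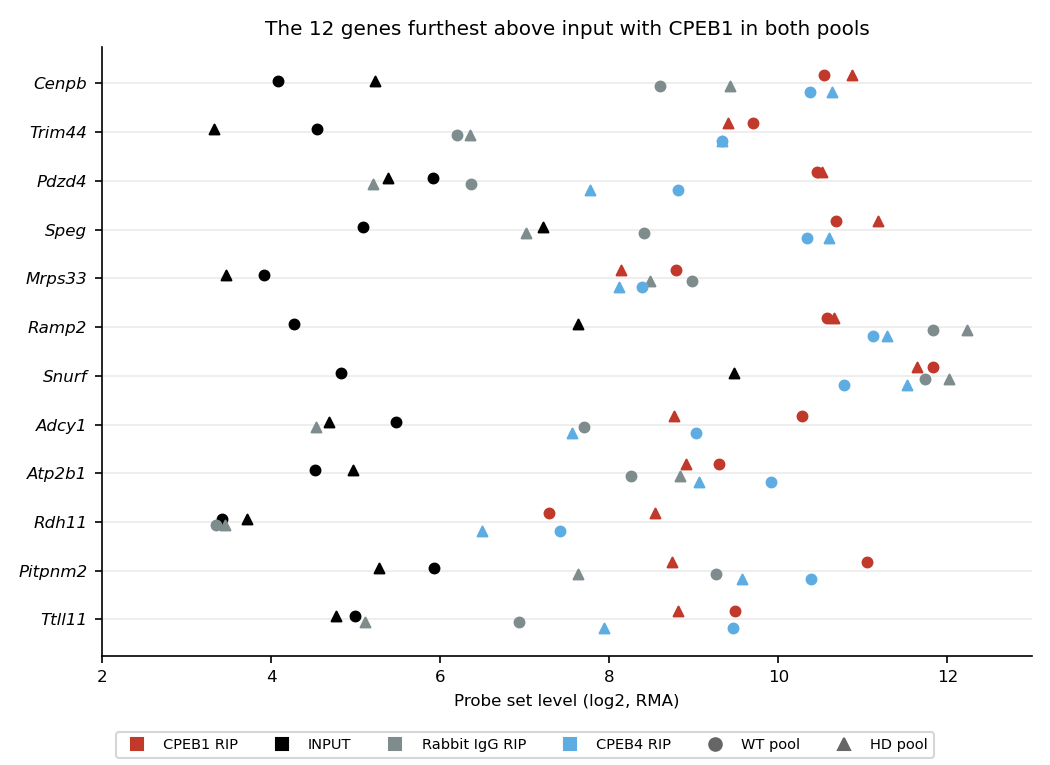
Probe set level (log2) on each of the 8 arrays for the 12 genes furthest above input with CPEB1, circles for the WT pool and triangles for the HD pool. CPEB1 points lie right of both input points in every row. IgG points lie at input for Pdzd4 and beyond CPEB1 for Ramp2. For Rdh11 the input and IgG points all lie below the limit for testing.

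Some genes had both CPEB1 arrays above all other 6 arrays, IgG and CPEB4 included. There were 365 of these (3.22% of genes tested) and 148 whose CPEB1 arrays were both the lowest (1.30%); the same counts were 986 and 491 for input, 458 and 786 for IgG and 1275 and 2866 for CPEB4, so CPEB1 had the fewest in both directions. Mmab, the mitochondrial enzyme that adenosylates cobalamin, had 8.22 and 9.29 with CPEB1 and between 5.03 and 5.69 on the other 6 arrays. Rgp1, a subunit of the exchange factor for Rab6, had 8.81 and 9.01 with CPEB1 and between 5.19 and 6.71 elsewhere. Psmd6, a lid subunit of the proteasome, had 6.50 and 6.07 with CPEB1 and between 3.51 and 4.13 elsewhere. For Psmd6, the smallest gap of these 3, the nearest other array lay 1.94 below the lower CPEB1 array. Tro (trophinin) had 10.29 and 10.75 with CPEB1, 7.07 and 7.21 in input, 7.21 and 7.99 with IgG and 8.37 and 8.40 with CPEB4. Fam184a was at 9.45 and 9.43 with CPEB1 against 5.21 and 6.87 in input. Ppip5k1, an inositol pyrophosphate kinase, had 7.35 and 7.64 against 4.12 and 5.77, and Cabp7, a calcium-binding protein, 7.91 and 7.69 against 5.35 and 5.05. None of the 8 genes passed the test against input by limma, with Pdzd4 nearest (4.83 ± 0.38, adjusted p = 0.0653) and Tro next (3.38 ± 0.30, adjusted p = 0.102).

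**Figure D3:**
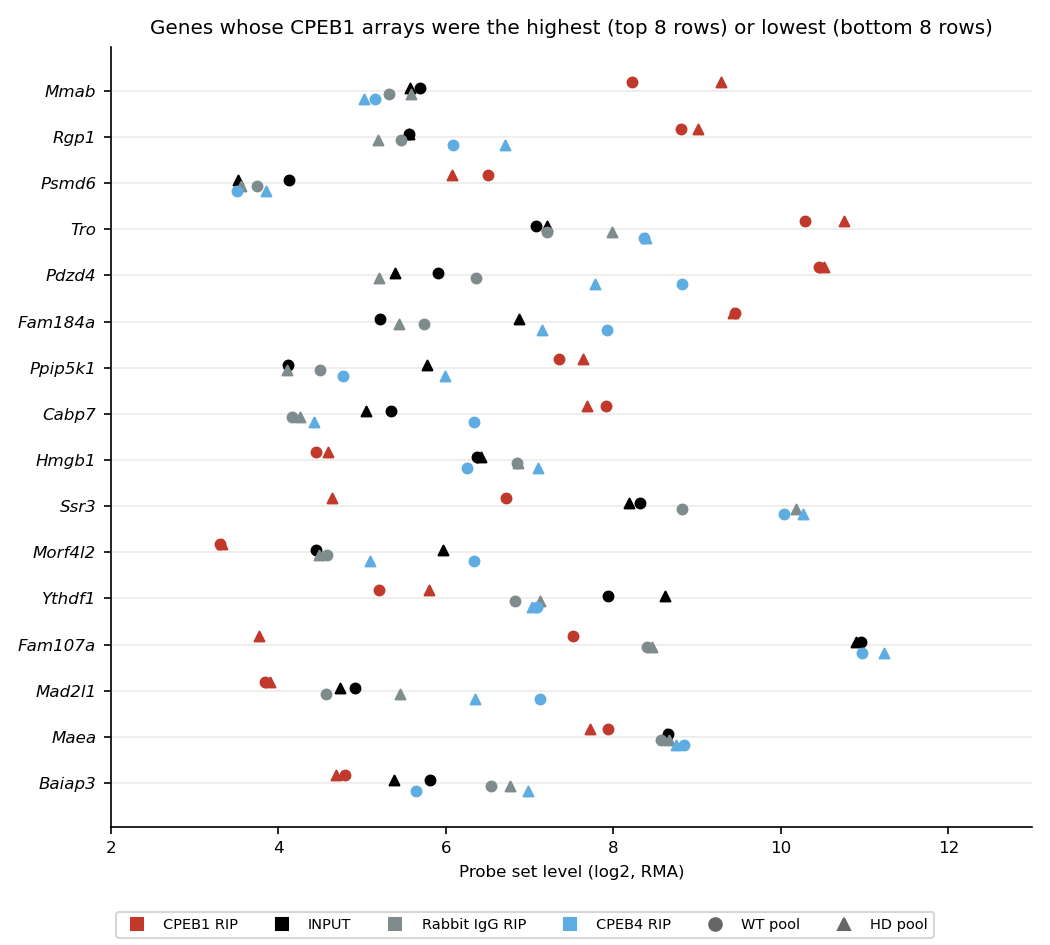
Probe set level (log2) on each of the 8 arrays for the 8 genes whose CPEB1 arrays were furthest above all others (upper rows) and the 8 furthest below (lower rows). Red CPEB1 points stand clear of the other 6 by at least 1.36 in the upper rows and by 0.59 to 1.65 in the lower.

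On the opposite side, Hmgb1, Ssr3, Morf4l2 and Ythdf1 led the genes whose lowest values were those with CPEB1. Hmgb1, a chromatin-associated high mobility group protein, had 4.45 and 4.60 with CPEB1, 6.37 and 6.42 in input and 6.86 and 6.87 with IgG. Ythdf1, a reader of N6-methyladenosine in messenger RNA, had 5.20 and 5.80 with CPEB1, 7.93 and 8.62 in input and 6.83 and 7.13 with IgG. Ssr3, a subunit of the translocon-associated complex of the endoplasmic reticulum, had 6.71 and 4.64 with CPEB1, 8.32 and 8.18 in input and 8.82 and 10.18 with IgG. For Hmgb1 and Ssr3 both IgG arrays were above both input arrays while both CPEB1 arrays were below them. Morf4l2, a chromatin protein, had 3.31 and 3.33 with CPEB1 and at least 4.45 elsewhere. Mad2l1 (spindle checkpoint), Maea (a ubiquitin ligase subunit) and Baiap3 were 0.81 to 0.96 below input on average, less than 2-fold. By limma the adjusted p was 0.182 for Hmgb1 and 0.109 for Ythdf1.

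Fam107a, Sumo2, Nkain1, Exoc4 and Clu were the genes furthest below input. Fam107a, an actin-associated protein known for induction by stress, had 7.52 and 3.77 with CPEB1, 10.96 and 10.90 in input, 8.40 and 8.46 with IgG and 10.97 and 11.23 with CPEB4. Its CPEB1 arrays were the lowest of the 8, and its difference of -5.29 ± 1.05 did not pass by limma (adjusted p = 0.251). Clu (clusterin), a secreted chaperone of astrocytes, had 7.82 and 6.76 with CPEB1, 10.64 and 11.07 in input and 7.67 and 7.12 with IgG. The difference of -3.57 ± 0.41 missed the threshold (adjusted p = 0.109 by limma) and passed it under cyclic loess (-3.91, adjusted p = 0.0361). Of the other Clu probe sets, 1 was also below input, with differences of -2.53 and -3.66, and 1 was above it, with 2.70 and 0.88. Sumo2, a ubiquitin-like modifier with many near-identical copies in the genome, had 4.15 and 4.35 with CPEB1 and 8.02 and 9.07 in input. Nkain1, which interacts with the sodium pump, had 6.69 and 4.36 against 9.55 and 9.55.

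The rest of the 12 lowest had mean differences between -3.17 (Npc2) and -3.49 (Pom121). Npc2, the cholesterol carrier of the lysosome, had 5.75 and 5.88 with CPEB1, 8.62 and 9.34 in input and 6.75 and 6.31 with IgG. Laptm4b, a lysosomal membrane protein, had 6.24 and 8.04 against 9.73 and 11.32, and Atp6ap2, an accessory subunit of the vacuolar proton pump, 5.77 and 5.26 against 7.67 and 9.74. The IgG array of the WT pool read 9.83 for Laptm4b, level with input. Snx17, a sorting nexin of endosomal recycling, had 7.91 and 6.89 against 10.26 and 11.36. Vapa, a tether of the endoplasmic reticulum, had 4.47 and 4.42 against 6.82 and 8.76, and the exocyst subunit Exoc4 4.65 and 5.63 against 8.15 and 9.30. The remaining members were Pom121 of the nuclear pore (4.27 and 3.38 against 6.97 and 7.65) and the ubiquitin ligase Rnf115 (5.08 and 6.43 against 8.29 and 10.09). IgG was at or below 4.83 for Sumo2 and Vapa, near the CPEB1 values.

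**Figure D4:**
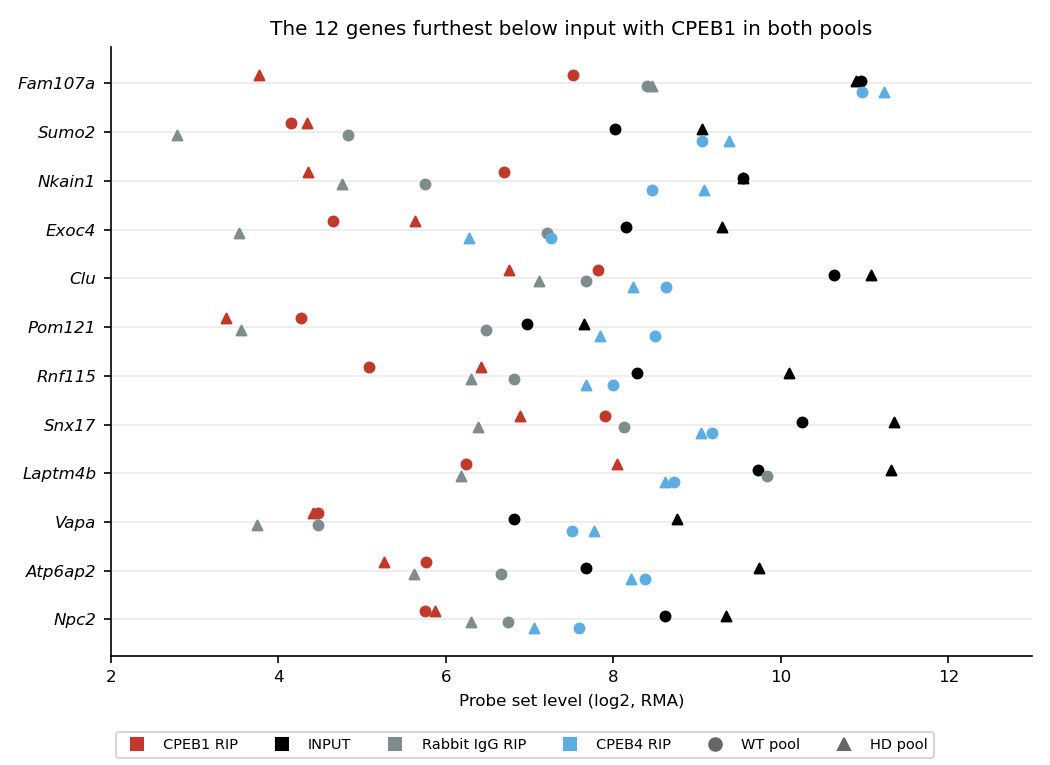
Probe set level (log2) on each of the 8 arrays for the 12 genes furthest below input with CPEB1, circles for the WT pool and triangles for the HD pool. Input points lie right of both CPEB1 points in every row; IgG points are mostly near CPEB1, with the WT IgG array of Laptm4b level with input.

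The WT and HD pools gave different pictures of the same comparison. Across the 11345 genes, the CPEB1 minus input difference of the WT pool and that of the HD pool correlated at r = 0.08; the points are genes on the same 4 arrays and not independent replicates. In the WT pool 2207 genes (19.5%) were 2-fold above input and 592 (5.22%) below, and in the HD pool 779 (6.87%) above and 1245 (11.0%) below. After quantile normalization these were 1609 and 1322 in WT and 1097 and 1079 in HD. The 445 genes above input in WT and below in HD are 3.92% of those tested, and the 15 with the reverse pattern 0.132%; quantile normalization gave 276 and 74. The median of the 445 genes, chosen on these 4 arrays, was 8.15 and 5.96 with CPEB1 and 5.92 and 8.13 in input. With IgG it was 6.38 and 6.01, and with CPEB4 8.23 and 7.74.

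Snd1, an RNA-binding Tudor domain nuclease, had 9.59 and 5.70 with CPEB1 and 4.64 and 8.82 in input, differences of 4.95 and -3.12. Rab11fip5, an effector of Rab11 in endosome recycling, had 8.30 and 4.35 with CPEB1 and 3.21 and 7.61 in input. Mrtfa, a coactivator of serum response factor, had 8.52 and 6.71 with CPEB1 and 3.84 and 10.04 in input. In these 3 genes the input arrays differed by more than the CPEB1 arrays did. Btbd9, a BTB domain protein, had 9.02 and 4.87 against 5.24 and 8.58. Plagl2, a zinc finger transcription factor, ran the other way, with 4.30 and 8.66 with CPEB1 and 6.56 and 3.92 in input. Cnpy2 had 8.25 and 9.77 against 10.66 and 7.73, and the potassium channel gene Kcnk1 5.65 and 7.51 against 7.77 and 5.23. Boc, a Hedgehog co-receptor, had 5.94 and 9.01 against 7.05 and 6.36. With 1 array per fraction and pool, genotype, pool and amplification cannot be told apart, and these differences were not tested.

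Among CPEB family transcripts, only Cpeb3 passed the limit for testing. Cpeb3 had 10.17 and 10.12 with CPEB1, 7.14 and 7.58 in input, 9.30 and 7.29 with IgG and 9.73 and 9.51 with CPEB4, and the CPEB1 arrays were the highest of the 8. The difference of 2.78 ± 0.62 did not pass (adjusted p = 0.292 by limma), and 2 other Cpeb3 probe sets were less than 2-fold from input in both pools. Cpeb1, Cpeb2 and Cpeb4 lay below that limit on average, although with CPEB4 their probe sets reached 5.08, 7.94 and 7.37 on the higher array; the Cpeb1 probe set read 3.90 and 3.46 with CPEB1 and 3.42 and 3.28 in input. Of 7 tested genes from a list of reported CPEB1 targets, 1 was 2-fold above input in both pools. That was Map2, the dendritic microtubule protein, with 8.49 and 7.58 against 6.28 and 4.69 in input (2.55 ± 0.35, adjusted p = 0.124 by limma) and 7.05 and 5.95 with IgG. With CPEB4 Map2 had 9.13 and 8.72. Over all genes tested, 3.49% were 2-fold above input in both pools with CPEB1. App, the amyloid precursor protein, had differences of 3.39 and -0.12.

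Poly(A) and 3′ end factors, the machinery with which CPEB proteins work, had 3 of 35 members above input at 2-fold in both pools and none below. Over all genes tested the shares were 3.49% and 1.18%. With CPEB4, 10 of the 35 were above input by that rule, as were 1350 of the 11345 genes tested. Pabpc1, the cytoplasmic poly(A)-binding protein, had 8.93 and 8.05 with CPEB1, 5.62 and 5.20 in input and 4.83 and 4.66 with IgG. Its IgG values were below input while CPEB1 was above (3.09 ± 0.33, adjusted p = 0.109 by limma). With CPEB4 Pabpc1 had 9.29 and 8.17, a mean of 3.32 above input. Pabpn1, the nuclear poly(A)-binding protein, had 10.17 and 9.79 against 6.21 and 8.50, and Wdr33, a subunit that recognises the polyadenylation signal, 7.23 and 7.80 against 4.83 and 5.39. IgG was also above input for both, at 9.82 and 9.77 and at 6.50 and 6.59. Averaged over all probe sets of the gene, Wdr33 came to 0.44, under 2-fold. Pabpc1 and Pabpn1 were at 1.44 and 1.40 by that average. The list's median difference was 0.11 and 0.01, against -0.04 and 0.03 over all genes tested, and its sign varied with the scaling.

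Lists for protein synthesis and turnover had medians above input in the WT pool under each scaling. Of 67 cytosolic ribosomal protein genes, 44 were 2-fold above input in WT and 4 in HD, where 14 were below; 4 were above in both, Rpl9, Rps6, Rps19 and Rps23. Over all genes tested the shares were 19.5%, 6.87%, 11.0% and 3.49%. The list median was 1.42 and -0.20 with CPEB1 and 0.57 and -1.15 with IgG. With CPEB1 it was 0.73 and 0.02 after quantile normalization and 0.16 and 0.16 after cyclic loess, so the gap between pools depended on the scaling. IgG was also above input for Rpl9 and Rps6, by 2.58 and 1.72 on average. Rps19 differed, with 10.24 and 9.51 with CPEB1, 7.74 and 8.47 in input and 6.22 and 7.16 with IgG. Averaged over all probe sets of the gene, Rps6 came to 0.44, under 2-fold. Rpl9, Rps19 and Rps23 were at 1.44, 1.77 and 1.81 by that average. Ribosomal protein genes have many near-identical pseudogenes, so a probe set can read more than its own gene. Of 46 translation initiation and elongation factors, 4 were 2-fold above input in both pools and none below. Eef1g, the gamma subunit of elongation factor 1, had 10.25 and 10.29 with CPEB1 and between 4.41 and 9.14 on the other arrays, input at 4.65 and 9.14. Eef1b2 had 9.52 and 9.19 against 4.53 and 6.55, with IgG at 7.58 and 9.05.

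Proteasome subunits had 5 of 34 members above input at 2-fold in both pools and 2 below, with a list median of 0.92 and 0.21 that stayed above 0 under each scaling. Over all genes tested, 3.49% were above in both pools and 1.18% below. Psmc1, an ATPase of the regulatory particle, had 9.17 and 7.97 with CPEB1, 4.50 and 4.55 in input and 7.16 and 5.79 with IgG (4.05 ± 0.42, adjusted p = 0.109 by limma). Psma7, a ring subunit of the core, had 8.78 and 8.61 against 5.44 and 5.95, and the ATPase Psmc5 10.48 and 9.05 against 6.72 and 6.23. Psmd7 and Psmd6 were the other 2 above input, Psmd6 having passed the limit for testing only through its CPEB1 arrays. Psmd11 and Psmb3 lay below, Psmd11 at 4.04 and 4.93 against 7.31 and 6.25 in input. Averaged over all probe sets of the gene, their differences were -0.34 and -0.06. By that average Psmc1, Psmc5, Psmd7 and Psma7 stayed at least 2-fold above input, and Psmd6 fell under the limit for testing. Mitochondrial ribosomal proteins had 4 of 69 above in both pools (Mrps33, Mrpl9, Mrpl28 and Mrpl34) and none below. Of 63 respiratory chain and ATP synthase genes, 39 were above input in WT and 19 below in HD, with 3 above in both and 1, Cox8a, below. Over all genes tested the shares were 19.5% above in WT and 11.0% below in HD. The respiratory median was 1.37 and -0.48 with CPEB1 and 0.61 and -0.93 with IgG. With CPEB1 it was 0.61 and -0.20 after quantile normalization and 0.55 and -0.28 after cyclic loess. None of these lists held a gene past the test by limma except the mitochondrial ribosome, through Mrps33.

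**Figure D5:**
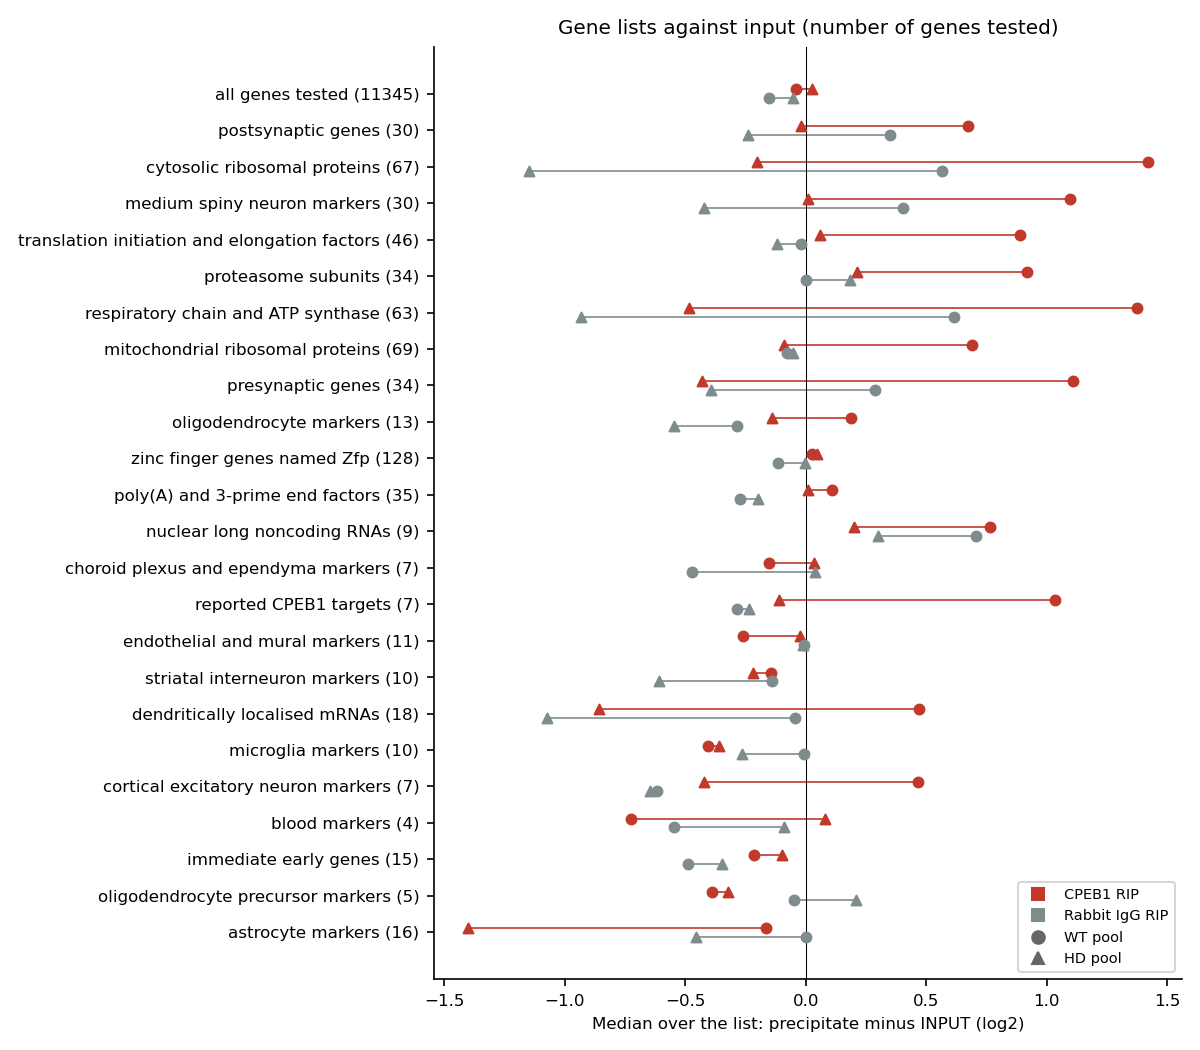
Median log2 difference from input over each gene list, CPEB1 in red and IgG in grey, with circles for the WT pool, triangles for the HD pool and a line joining them; the number of genes tested is in brackets. Cytosolic ribosomal proteins span 1.42 (WT) to -0.20 (HD) with CPEB1, against -0.04 and 0.03 for all genes tested. Under cyclic loess, which is not drawn, the CPEB1 values of that list were 0.16 and 0.16.

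The neuronal lists also had higher medians in the WT pool than in the HD pool. Of 30 medium spiny neuron markers, 17 were 2-fold above input in WT and 4 in HD, with 4 above in both and 1 below, against 19.5%, 6.87%, 3.49% and 1.18% over all genes tested. The median was 1.10 and 0.01 with CPEB1, and 0.40 and -0.42 with IgG. With CPEB1 it was 0.32 and 0.10 after quantile normalization, 0.42 and 0.09 after cyclic loess and 1.27 and -0.04 after median centring. Rasgrp2, a Rap exchange factor of striatal neurons, had 9.88 and 8.92 with CPEB1, 5.80 and 6.05 in input and 6.96 and 4.93 with IgG. Bcl11b (CTIP2), a transcription factor of these neurons, had 10.83 and 9.46 against 7.83 and 8.28. Ptpn5 (STEP), a striatum-enriched phosphatase, had 11.80 and 9.84 against 10.04 and 8.41. Penk had 10.72 and 9.70 against 9.64 and 8.30, with IgG as high at 11.03 and 9.96. Tmem158 was the member below input, at 8.46 and 7.60 against 10.29 and 9.92. Since the tissue was pooled, fewer cells of a type and less RNA per cell cannot be told apart in the input levels. The differences from input are a measure of neither.

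Among 18 dendritically localised mRNAs, 3 were above input at 2-fold in both pools and 2 below. For this and the synaptic lists that follow, the shares over all genes tested were 3.49% above and 1.18% below. Agap2 (PIKE), a GTPase-activating protein, had 9.69 and 8.19 with CPEB1, 6.23 and 6.41 in input and 6.16 and 6.39 with IgG, so IgG equalled input and the CPEB1 arrays were the highest of the 8. Camk2n1, an inhibitor of calcium/calmodulin kinase II, had 9.96 and 8.45 against 8.12 and 7.41, and Map2 is given above. Arc, the activity-regulated cytoskeletal gene, had 10.01 and 6.62 with CPEB1, 11.08 and 9.86 in input and 7.11 and 6.37 with IgG. Grm5, the mGluR5 glutamate receptor, had 6.52 and 3.59 against 8.03 and 7.13. Both lay below input with CPEB1 and further below with IgG on average. Of 30 postsynaptic genes, 3 were above (Agap2, Cnksr2 and Dlgap4) and 1 below (Grm5). Dlgap4, a scaffold of the postsynaptic density, had 9.92 and 9.73 against 6.53 and 7.82, with IgG at 8.64 and 8.84. Of 34 presynaptic genes, Syn2 (synapsin II) was the 1 member above in both pools, at 8.64 and 9.09 against 7.05 and 7.23, with IgG at 6.58 and 6.45. The presynaptic median was 1.11 and -0.43, with 0.35 and -0.28 after quantile normalization and 0.41 and -0.43 after cyclic loess.

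Astrocyte and microglia lists had medians below input in both pools. Of 16 astrocyte markers, 3 were 2-fold below input in both pools (Clu, Fgfr3 and Mlc1) and 1 above (Ntsr2). Over all genes tested the shares were 1.18% and 3.49%. The astrocyte median was -0.16 and -1.40, and its WT value was 0.01 after median centring. Fgfr3, a growth factor receptor, had 7.08 and 5.82 against 8.38 and 8.42, with IgG at 8.79 and 7.20. Mlc1, a membrane protein of astrocyte endfeet, had 8.73 and 8.16 against 10.13 and 9.80, with IgG at 9.01 and 8.52. Of 10 microglia markers none was 2-fold from input in both pools, and the median was -0.40 and -0.36. C1qc, a complement component, had 5.19 and 4.67 against 5.95 and 6.40. Cspg5 was the 1 of 5 oligodendrocyte precursor markers below input, at 8.46 and 7.52 against 10.50 and 9.53. Haemoglobin Hba-a1 had 10.90 and 9.70 against 11.92 and 12.53, with IgG at 11.07 and 10.68. Of 13 oligodendrocyte and 11 endothelial and mural markers none reached 2-fold in both pools.

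Meg3 and Malat1, nuclear long noncoding RNAs, were above input with IgG as well as with CPEB1. Meg3, an imprinted noncoding RNA, had 10.47 and 11.69 with CPEB1, 7.46 and 7.15 in input and 11.43 and 12.10 with IgG. Malat1, a component of nuclear speckles, had 9.32 and 9.05 with CPEB1, 7.33 and 7.72 in input and 10.05 and 10.07 with IgG. For both genes each IgG array was above the CPEB1 array of its pool. They were the 2 of 9 tested noncoding RNAs at 2-fold above input in both pools, and the list median was 0.77 and 0.20 with CPEB1 and 0.71 and 0.30 with IgG. Of 128 zinc finger genes named Zfp, 3 were above and 2 below, 9 were above in HD and 18 in WT, and the median was 0.03 and 0.05. Over all genes tested, 3.49% were above and 1.18% below in both pools, 6.87% were above in HD and 19.5% in WT.

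Other probe sets of the same genes were set beside those used. Of the 396 genes, 212 had 339 other probe sets, of which 22 (6.49%) were 2-fold above input in both pools, against 3.14% of the 4807 other probe sets of all genes tested. The 134 genes had 98, of which 16 (16.3%) were 2-fold below, against 1.87%. Trim44 had another probe set with differences of 2.62 and -1.58, and Pdzd4 had another with 0.53 and 0.11. Of 3 others of Speg, none was 2-fold above in both pools. Averaging the probe sets of a gene made the log2 difference from input over 1.5 times smaller for 69 of the 117 named genes with a difference of at least 1, Speg from 4.78 to 1.66, Mmab from 3.12 to 0.84 and Nkain1 from -4.03 to -0.99 among them. Cenpb and Mrps33 had no other probe set to compare. Probe sets of a gene can lie at different distances from its 3′ end, and which transcript ends they read was not analysed here.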

How the data were processed

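The authors deposited log2 probe set values summarised with RMA, which the submitters' processing notes name without a version. No label says whether all 8 arrays went through it together. Values were used as deposited. Of 45101 probe sets, 28898 carried 1 gene symbol, 551 several and 15652 none, and 28689 were matched to the RefSeq genes of GRCm38.p6. Where a gene had several single-symbol probe sets, the one of highest mean was taken. Differences were fitted with limma 3.58.1 in R 4.3.3 (lmFit, eBayes, two-sided, Benjamini-Hochberg adjusted p under 0.05) with fraction and genotype pool over all 8 arrays, 3 residual degrees of freedom. Each pool supplied all 4 fractions, which is the basis of the block. Errors are the SE of that fit; for arrays their number limits the precision. The fit was tested on simulated arrays of CPEB1 RIP over input with 11345 genes. It recovered 1.6% of changes of 1, 37.6% of 2, 68.8% of 4 and 87.2% of 6 (log2), with 5 of 103 calls false on average. The simulated noise was independent between arrays, without the differences in array spread and between pools seen here. These rates therefore need not hold for the real arrays.

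Named genes were those past the test, the 12 largest differences each way at 2-fold in both pools, the 8 each way whose CPEB1 arrays were furthest from the other 6, the 4 each way with opposed pools, up to 4 members of each list, and the CPEB genes; clone and predicted names were passed over. Further list members, named because they reached 2-fold in both pools, and the lists of the closing section were chosen after their values were seen. The comparison, genes and lists were chosen with earlier results of these data known. Alternatives were filters, the mean of probe sets, 3 scalings, only the 4 arrays compared, no block, trended robust eBayes, leaving out each array, and other fold thresholds. No sequence search was made.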

Additional observations from a re-analysis of the deposited data

Results flagged for a closer look

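Opposed directions of the 2 pools drew attention: 445 genes were 2-fold above input with CPEB1 in WT and 2-fold below in HD, and 15 the reverse. With 1 array per fraction and pool, none of these differences was tested. The WT difference minus the HD difference was 8.35 for Rab11fip5, 8.08 for Snd1, 8.01 for Mrtfa and 7.50 for Btbd9. It was -7.00 for Plagl2, -4.45 for Cnpy2, -4.41 for Kcnk1 and -3.76 for Boc. After averaging over all probe sets of the gene, it was 5.23 for Rab11fip5, 4.08 for Btbd9, -2.45 for Plagl2, -1.77 for Cnpy2, -1.69 for Kcnk1 and -2.05 for Boc.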

How the results depend on the processing

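The 2 calls above input became 0 with median centring, with trended robust eBayes and with only the 4 arrays compared, and stayed between 0 and 0 when any array was left out; without the replicate block of pools, 3 genes passed, Trim44 being the third. Cyclic loess called 1 gene lower, Clu. Genes at 2-fold above input in both pools numbered 194 with the mean of probe sets, 744 at a 1.5-fold threshold and 191 at 3-fold. Those below numbered 210 with cyclic loess, 213 with quantile normalization, 76 with the mean of probe sets, 346 at 1.5-fold and 42 at 3-fold. Those above in WT and below in HD numbered 276 with quantile normalization, 834 at 1.5-fold and 196 at 3-fold. Cox5a, 1.23 above input, turned to -1.67 with the mean of probe sets. Of 2101 values of named genes under the alternatives, 2100 kept their sign. Several alternatives could not alter a sign, because they returned the same difference. Cenpb, for example, stayed at 6.04 when an IgG or CPEB4 array was dropped. It also stayed there when the gene filter or the variance model was changed. Many named genes were chosen for large differences on these arrays, so the count of kept signs is little test of stability. The mean of probe sets brought 33 of 117 genes from 2-fold or more to under 2-fold. Among them were Atp2b1, from 4.36 to 0.65, and Exoc4, from -3.58 to -0.76. Of 280 list medians, 36 changed sign, in 16 lists. The cause of these shifts was not tested.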

Other observations

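Gene groups chosen after their values were seen are given as counts only, with no test. Of 24 genes of SR proteins and nuclear speckle components, which act in pre-mRNA splicing, 7 were 2-fold above input with CPEB1 in both pools and none below (Srrm2, Luc7l3, Rsrc2, Snrnp70, Son, U2af1 and Clk4). Over all genes tested 3.49% were above in both pools. With IgG, 4 of the 24 were above input by that rule, against 1.67% of all genes, and the 2 comparisons share the input arrays. Srrm2 had 9.91 and 10.15 with CPEB1, 6.30 and 6.64 in input and 8.53 and 10.64 with IgG, and Son had 8.16 and 8.14, 5.73 and 5.78, and 7.80 and 8.90 in the same order. The IgG values of both were above both input arrays. Averaged over all probe sets of the gene, Srrm2 came to 0.95, Luc7l3 to 0.72, Son to 0.37 and Clk4 to 0.48, each under 2-fold. Rsrc2, Snrnp70 and U2af1 were at 2.95, 1.21 and 1.66 by that average. Of 26 DEAD box RNA helicases, 4 were above (Ddx10, Ddx24, Ddx27 and Ddx47) and none below. Ddx10 had 9.23 and 9.90 against 6.65 and 6.03 in input, with IgG at 8.37 and 7.02. Averaged over probe sets, Ddx24 and Ddx27 came to 0.98 and 0.96, and Ddx10 and Ddx47 to 1.56 and 2.22.

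Lists of lysosomal and related genes were added after Npc2, Laptm4b and Atp6ap2 had been seen among the 12 lowest, and these are counted as members. Of 22 lysosomal enzymes and membrane proteins, 4 were 2-fold below input in both pools (Npc2, Laptm4b, Grn and Smpd1) and none above, with a median of -0.33 and -0.68 with CPEB1 and -0.27 and -0.44 with IgG. Grn (progranulin) had 6.07 and 7.22 with CPEB1, 8.71 and 9.24 in input and 8.81 and 7.71 with IgG. Of 16 subunits of the vacuolar proton pump, 3 were below (Atp6ap2, Atp6v1e1 and Atp6v0b) and none above, against 1.18% and 3.49% of all genes. The median was 0.55 in WT, where 5 were 2-fold above input and 5 below, and -0.42 in HD; the WT value was -0.085 with quantile normalization. Atp6v1e1 had 7.20 and 6.64 with CPEB1, 9.64 and 9.66 in input and 6.25 and 6.86 with IgG. Averaged over all probe sets of the gene, Grn came to -0.83 and Atp6v0b to -0.25. By that average Npc2, Laptm4b, Smpd1, Atp6ap2 and Atp6v1e1 stayed at least 2-fold below input. Of 134 genes named Tmem, 1 was above and 2 below.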
